A study of Mus musculus with 21 samples.

Results

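The 9 genes of arginine use described here were followed through 21 RNA-seq libraries of mouse peritoneal macrophages. They are Slc7a2, Nos2, Gch1, Arg1, Arg2, Ass1, Asl, Odc1 and Sat1. They were taken by symbol from a table of 23544 genes, and 41 transcripts carry their names. The values are TPM, transcripts in each 1000000 of a library, which divide by transcript length, so that levels can be compared between genes.

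The cells were CD11b+ cells from the peritoneal lavage of mice that had received no eliciting agent, cultured overnight in plates. CD11b is an integrin chain of macrophages and other myeloid cells. All mice were on the C57BL/6 background. There were 9 wild type libraries, 6 labelled Lum-/- and 6 labelled Bgn-/- (the protocol writes Bgn-/0, -/-). Lum encodes lumican and Bgn encodes biglycan, both matrix proteoglycans with leucine-rich repeats. Cells received LPS, a bacterial lipopolysaccharide sensed by TLR4, at 100 ng/mL, or CpG DNA, which TLR9 senses, at 1 µM. Stimulated cells were left for 6 h, and others had no stimulus. Some wells first received recombinant lumican or biglycan at 10 µg/mL for 1 h. The dose and time are not given for wells with protein and no stimulus. Wild type cells met no protein, lumican or biglycan under each of the 3 stimulus states. Lumican was the protein tried on Lum-/- labelled cells, beside none, and biglycan the one tried on Bgn-/- labelled cells. Each combination was 1 library. The labels give n = 10 mice without saying how they were divided among wells, so p-values measure only the spread between matched libraries, and genotype and cell preparation cannot be told apart.

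Macrophages use arginine along competing routes. Slc7a2 encodes the cationic amino acid transporter CAT2, which brings arginine into the cell. Nos2 encodes inducible nitric oxide synthase, which turns arginine into nitric oxide and citrulline and needs tetrahydrobiopterin, whose synthesis begins with the enzyme encoded by Gch1. Arginases split arginine into urea and ornithine: Arg1 encodes the cytosolic and Arg2 the mitochondrial enzyme. Ass1 and Asl encode the enzymes that rebuild arginine from citrulline. Odc1 encodes ornithine decarboxylase, which makes the polyamine putrescine, and Sat1 encodes the acetyltransferase that starts polyamine breakdown.

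Some libraries went against their labels. A pair with different labels, Lum-/- untreated and Bgn-/- with biglycan alone, was closer than sampling noise: the squared difference was 0.192 of that expected, over 532 genes, against at least 2.27 in the other 209 pairs. As estimated from the lowest values, they held 2.23 and 2.17 M reads (M stands for 1000000), and each of the other 19 at least 14.2 M. Sampling noise is larger at such low depth, and without dividing by it the pair was not the closest. Its median absolute log2 difference was 0.0913, and the lowest among the other pairs was 0.0855. These 2 libraries were left out of the fits. Ranges without stimulus below cover the 5 other libraries. The wild type untreated library had a summed level of 6 mast cell markers of 3.45 TPM, against 64.6 to 115 TPM in the other 8 wild type libraries and 2.55 to 10.6 TPM in the fitted libraries with a knockout label. Large peritoneal macrophage markers summed to 520 TPM in it and at most 312 TPM elsewhere. Markers of small peritoneal macrophages, monocytes and dendritic cells summed to 96.2 TPM in it. They summed to 23.0 to 28.5 TPM in the other fitted libraries without stimulus and up to 87.1 TPM with LPS. The knocked-out genes were low, but were measured where the labels say they were deleted. Lum was at 1.17 to 14.1 TPM in the 5 fitted libraries labelled Lum-/-, 0 to 1.40 TPM in wild type and 0 to 0.134 TPM in the 5 labelled Bgn-/-. Bgn was at 0.758 to 3.49 TPM in the 5 fitted libraries labelled Bgn-/-, 0.327 to 1.52 TPM in wild type and 0 to 0.263 TPM in the 5 labelled Lum-/-. Median Lum was 3.93 TPM under the Lum-/- label, 0.324 in wild type and 0.0404 under the Bgn-/- label. Median Bgn was 0.0322, 0.542 and 1.18 TPM in the same order. Each gene was thus lowest, by median, under the label of the other knockout. Whether the reads under a gene's own knockout label lie outside the deleted part was not tested. Nor was it tested whether the knockout labels are right, and the genotypes are called by their labels throughout. The 6 macrophage markers summed to 38116 to 43611 TPM in the fitted libraries without stimulus, 32546 to 37390 with CpG and 11477 to 15260 with LPS. The 3 neutrophil markers in the table summed to 121 to 158, 142 to 199 and 308 to 387 TPM, nearly all of it S100a8, with S100a9 at most 0.589 TPM and Ly6g, the defining marker, at most 0.302 TPM. Both sums thus stood apart with LPS, and their part in the LPS results was not tested. Erythroid, eosinophil and mesothelial or fibroblast markers summed to at most 2.36 TPM.

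Slc7a2 can include either of a pair of alternative coding exons, and the transcript values separate them. The exons are shown because the levels below are sums over transcripts that carry one or the other, and 1 that carries neither. That transcript made up 1.00 to 2.44% of Slc7a2 TPM in the fitted libraries. Both exons lie on the plus strand of chromosome 8 in GRCm38, exon A at chr8:40908056-40908195 and exon B at chr8:40908398-40908534. Capitals mark bases that differ from the other exon in the alignment, in which 84 bases were identical, or 60% of the longer exon.
Slc7a2 exon A: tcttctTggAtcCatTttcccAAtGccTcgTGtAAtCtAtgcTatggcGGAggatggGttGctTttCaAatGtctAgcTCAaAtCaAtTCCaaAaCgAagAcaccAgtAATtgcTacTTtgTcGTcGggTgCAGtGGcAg
Slc7a2 exon B: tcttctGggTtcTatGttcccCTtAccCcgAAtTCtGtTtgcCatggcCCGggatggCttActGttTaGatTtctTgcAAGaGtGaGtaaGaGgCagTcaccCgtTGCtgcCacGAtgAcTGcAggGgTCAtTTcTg
The sources used here do not say which exon belongs to which named isoform of CAT2.

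Of the genes that rose with LPS, Gch1 and Sat1 are shown with the 250 bases before their start in RefSeq (GRCm38.p6). RefSeq promoters were found for 4 of the 9 genes, and those of Ass1 and Odc1, which also rose, are not printed because they overlap an annotated first exon. Capitals mark matches on either strand to the NF-kB consensus, or to the letters TTNNGNAA (C/EBP), TGACG (CRE core) or GGGCGG (GC box). The Gch1 stretch is chr14:47189414-47189663 and the Sat1 stretch is chrX:155216450-155216699, both written along the minus strand.
Gch1 promoter: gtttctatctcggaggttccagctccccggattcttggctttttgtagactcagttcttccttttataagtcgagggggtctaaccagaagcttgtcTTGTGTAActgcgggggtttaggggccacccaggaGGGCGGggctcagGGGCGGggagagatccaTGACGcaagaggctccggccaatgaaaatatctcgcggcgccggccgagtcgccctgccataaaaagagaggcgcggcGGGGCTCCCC
Sat1 promoter: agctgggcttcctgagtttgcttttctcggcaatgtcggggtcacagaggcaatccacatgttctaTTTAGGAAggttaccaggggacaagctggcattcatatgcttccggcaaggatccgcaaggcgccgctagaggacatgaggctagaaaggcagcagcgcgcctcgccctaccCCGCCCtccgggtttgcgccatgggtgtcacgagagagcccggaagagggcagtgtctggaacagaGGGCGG
The Gch1 stretch held an NF-kB match at -10 to -1, a motif present in 7.25% of 32851 promoters of this length. It also held a C/EBP match, found in 36.8% of promoters, a CRE core, found in 17.8%, and 2 GC boxes. The Sat1 stretch held a C/EBP match and 2 GC boxes, the latter found in 32.7% of promoters. No E-box (CACGTG), AP-1 (TGANTCA) or ISRE (GAAANNGAAA) letters were in either window. Of the others, the Ass1 window held an E-box, found in 6.02% of promoters, and a GC box, and the Odc1 window a CRE core and 4 GC boxes. The NF-kB match was in 1 of the 4 windows.

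With LPS, the transporter and the nitric oxide genes rose most. Slc7a2 was at 87.8 TPM in wild type untreated cells, 255 with lumican, 149 with biglycan, 159 in Lum-/- labelled cells with lumican and 160 in untreated Bgn-/- labelled cells. The 7 LPS libraries ran from 1702 through a median of 2086 to 2225 TPM. All 7 were above every library without stimulus, and Slc7a2 was the highest of the 9 genes in each of them. In matched libraries the log2 difference of TPM + 1 was 3.79 ± 0.20 (SE; limma adjusted p = 3.1e-10, higher in 5 of 5 pairs).

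Nos2 was the gene with the largest difference. Without stimulus it stood at 4.10 TPM in wild type cells, 12.8 with lumican, 11.2 with biglycan, 36.2 in Lum-/- labelled cells with lumican and 9.79 in untreated Bgn-/- labelled cells. With LPS it ranged from 197 through 278 to 480 TPM. The groups did not overlap, and the log2 difference was 4.48 ± 0.40 (limma adjusted p = 7.5e-08). Gch1, the first enzyme of cofactor synthesis, ranged from 57.1 through 62.9 to 77.4 TPM without stimulus and from 198 through 219 to 226 TPM with LPS. These groups did not overlap either, and the log2 difference was 1.68 ± 0.07 (limma adjusted p = 2.9e-11).

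The citrulline recycling genes moved apart with LPS. Asl, which releases arginine, fell from 37.3 to 55.1 TPM (median 42.1) without stimulus to 8.70 to 18.6 TPM (median 12.8) with LPS, with no overlap. The log2 difference was -1.62 ± 0.11 (limma adjusted p = 4.1e-09). Ass1, the step before it, ranged from 220 to 300 TPM (median 248) and from 246 to 357 TPM (median 297), which overlap, and was 0.28 ± 0.07 higher on the log2 scale in matched libraries (limma adjusted p = 0.0012). The ratio of Ass1 to Asl TPM was at most 7.33 (median 5.85) without stimulus and at least 15.6 (median 23.3) with LPS.

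The polyamine genes rose by less. Odc1 ranged from 18.9 through 26.3 to 27.9 TPM without stimulus and from 39.4 through 46.3 to 54.2 TPM with LPS, a log2 difference of 0.84 ± 0.08 (limma adjusted p = 1.0e-07). Sat1 ranged from 257 through 375 to 387 TPM and from 445 through 501 to 542 TPM, a log2 difference of 0.50 ± 0.08 (limma adjusted p = 3.8e-05). Neither gene's groups overlapped. In all 5 of the 9 genes were higher in every LPS library than in the 5 without stimulus, against 10.3% of all genes, and 1 was lower in every one, against 62.0% (72.3% in either direction).

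The arginases did not pass the test with LPS. Arg1 was at 4.52 TPM in wild type untreated cells, 7.48 with lumican, 7.70 with biglycan, 13.4 in Lum-/- labelled cells with lumican and 2.67 in untreated Bgn-/- labelled cells, and at 1.17 to 28.4 TPM (median 3.34) with LPS. The groups overlapped, with a log2 difference of -0.45 ± 0.27 (95% interval -1.04 to 0.14, limma adjusted p = 0.138). Without the wild type untreated library the difference was -0.67 (adjusted p = 0.0340 by limma), and without the untreated Bgn-/- labelled library it was -0.69 (adjusted p = 0.0273 by limma). Arg2 was 112 to 193 TPM without stimulus and 115 to 145 TPM with LPS, with a log2 difference of -0.13 ± 0.09 (limma adjusted p = 0.174; -0.21 and 0.0398 without the wild type untreated library). In all, 6 of the 9 genes rose with LPS and 1 fell, where 86.7% of the 11672 genes tested passed, 14.5% higher and 72.2% lower. The median over the 9 genes was 0.50 and over all genes -0.71. When the libraries were scaled to their median gene instead, 4548 genes were higher and 4586 lower in place of 1689 and 8431. Of the 9, 7 were then higher and Asl was still lower (-0.86), while Arg2 turned to 0.66 (adjusted p = 5.0e-06 by limma) and Arg1 to 0.22 (adjusted p = 0.489 by limma).

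The 2 near-identical libraries held Arg1 at 688 and 601 TPM, against at most 67.2 TPM in the other 19. In the untreated Lum-/- labelled one Slc7a2 was at 134 TPM, Nos2 14.7, Gch1 69.4, Arg2 137, Ass1 387, Asl 76.4, Odc1 41.2 and Sat1 365. In the Bgn-/- labelled one with biglycan the same genes were at 134, 13.3, 66.3, 134, 367, 71.8, 31.9 and 380 TPM. Ass1 and Asl were higher there than in any other library, and Odc1 at 41.2 TPM lay within the LPS range. With these 2 libraries in the fit, Arg1 passed as lower with LPS (-2.12, adjusted p = 0.0288 by limma) and Ass1 no longer passed (0.09 with LPS and 0.16 with CpG). Asl passed as lower with CpG (-0.41, adjusted p = 0.0345 by limma). Arg1 no longer passed in LPS against CpG (-1.50, adjusted p = 0.110 by limma) or by Lum-/- label (2.68, adjusted p = 0.127 by limma), nor Ass1 by Bgn-/- label (-0.28, adjusted p = 0.674 by limma). B cell markers summed to a median of 259 TPM in these 2 libraries and to at most 190 TPM in the others, and their part in these levels was not tested.

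**Figure D1:**
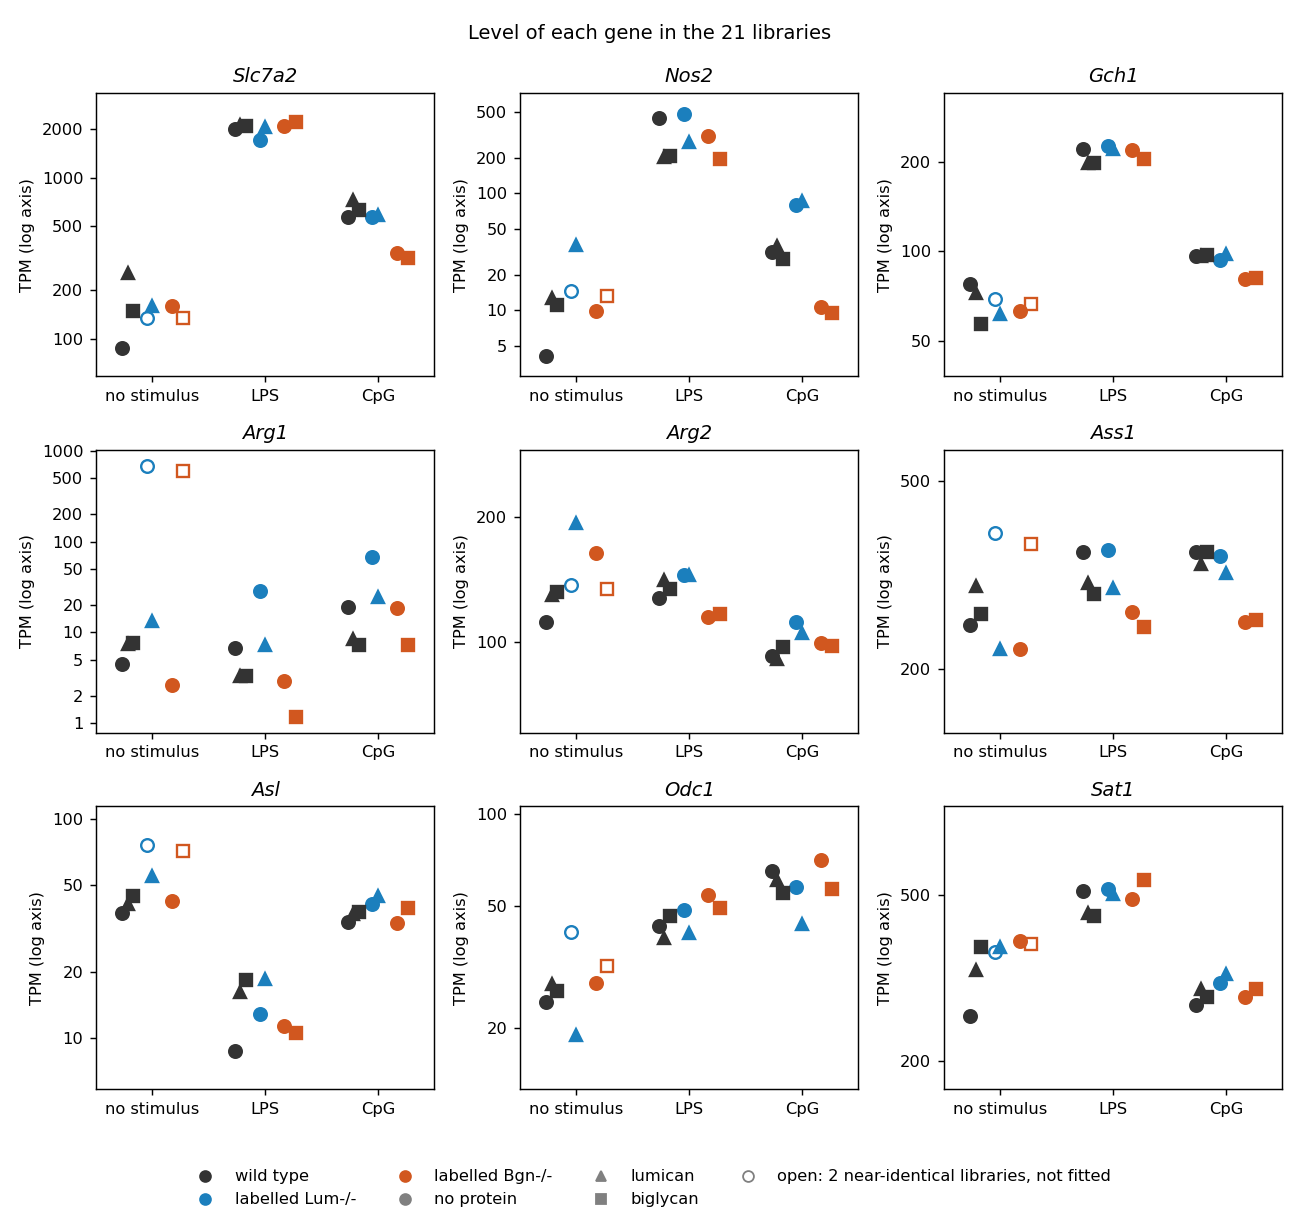
Level of each of the 9 genes in TPM (log axis) in each of the 21 libraries, by stimulus, genotype label (colour) and added protein (shape), with the 2 near-identical libraries open. Slc7a2, Nos2 and Gch1 are highest in the 7 LPS libraries, and Arg1 reaches 688 and 601 TPM in the 2 open points alone.

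In TPM, CpG raised Slc7a2 and Gch1 by less than LPS did and Odc1 by more, and moved the arginases. Slc7a2 ran from 316 through 572 to 727 TPM with CpG, above every library without stimulus, with a log2 difference of 1.81 ± 0.20 (limma adjusted p = 2.1e-05). It was 316 to 341 TPM in Bgn-/- labelled cells with CpG and at least 567 TPM under the other labels. Gch1 ran from 81.1 through 96.1 to 98.0 TPM, also without overlap, with a log2 difference of 0.48 ± 0.07 (limma adjusted p = 0.00017). Odc1 ran from 43.6 through 57.6 to 70.4 TPM, again without overlap, with a log2 difference of 1.18 ± 0.08 (limma adjusted p = 1.9e-07). The 3 genes of import, cofactor synthesis and putrescine synthesis were thus higher in every CpG library than in any fitted library without stimulus, against 7.10% of all genes.

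Arg1 rose with CpG, to 7.20 through 18.4 to 67.2 TPM. Its groups overlapped, and the log2 difference was 1.05 ± 0.27 (limma adjusted p = 0.0091, higher in 4 of 5 pairs). This rests on leaving out the 2 near-identical libraries, whose Arg1 was 688 and 601 TPM: with all 21 libraries the difference was -0.62 (limma adjusted p = 0.592). Arg2 fell to 91.2 through 97.9 to 112 TPM, below every library without stimulus (9.79% of all genes were), with a log2 difference of -0.54 ± 0.09 (limma adjusted p = 0.00044). The gap was narrow: 112.05 TPM in Lum-/- labelled cells with CpG against 112.165 TPM in the wild type untreated library.

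Nos2 and Sat1 passed the test with CpG by a small margin. Nos2 ran from 9.46 through 31.3 to 86.1 TPM and overlapped the libraries without stimulus. With CpG it was 9.46 to 10.6 TPM in Bgn-/- labelled cells, where the untreated library had 9.79 TPM. It was 27.4 to 35.9 TPM with CpG in wild type and 79.0 to 86.1 TPM in Lum-/- labelled cells. Over all matched pairs the log2 difference was 1.28 ± 0.40 (limma adjusted p = 0.024). The call was lost without the wild type library that was untreated (0.87, adjusted p = 0.0829 by limma), had CpG alone, lumican and CpG, or biglycan and CpG, or without the Lum-/- labelled one with lumican and CpG (1.13 to 1.26 in these 4, adjusted p of at least 0.0502 by limma). Sat1 ran from 273 through 297 to 323 TPM, overlapped, and was 0.24 ± 0.08 lower (log2 -0.24, limma adjusted p = 0.036). Its call was lost without any 1 of 9 libraries, with log2 values from -0.25 to -0.18 and adjusted p by limma up to 0.123. They were the Lum-/- labelled ones with lumican alone and with lumican and CpG, the wild type ones with lumican alone, biglycan alone, and biglycan and CpG, and the Bgn-/- labelled ones untreated, with CpG, and with biglycan plus either stimulus. Ass1 rose by 0.35 ± 0.07 on the log2 scale (limma adjusted p = 0.0013), and Asl did not pass (-0.18 ± 0.11, limma adjusted p = 0.237). In all 6 of the 9 rose and 2 fell, where 35.2% of all genes passed, 15.2% higher and 19.9% lower. The median was 0.48 over the 9 genes and -0.04 over all.

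LPS and CpG were compared directly over 7 matched pairs. Nos2 was 3.20 ± 0.35 higher with LPS on the log2 scale, Slc7a2 1.98 ± 0.18, Sat1 0.74 ± 0.07 and Arg2 0.40 ± 0.08. Gch1 was 2.30-fold higher. Each was higher in 7 of 7 pairs, and these 5 of the 9 were above every CpG library, against 8.10% of all genes. Arg1 was lower with LPS (-1.50 ± 0.24, limma adjusted p = 3.5e-05), as was Asl (-1.44 ± 0.10), each in 7 of 7 pairs. Asl was below every CpG library, as 62.4% of all genes were (70.5% lay apart in either direction). Odc1 was lower too (-0.34 ± 0.07, limma adjusted p = 0.00032), but 0.42 higher under median-gene scaling. Ass1 did not pass (-0.07 ± 0.06, limma adjusted p = 0.296) and was 0.70 higher under that scaling. Of the 9, 5 were higher and 3 lower, where 88.1% of all genes passed, 12.4% higher and 75.7% lower, and the median over all genes was -0.70. Under median-gene scaling 4409 genes were higher and 4684 lower in place of 1446 and 8841, and 7 of the 9 were higher and 2 lower. The ratio of Nos2 to Arg1 TPM was 16.9 to 168 with LPS, 0.575 to 4.26 with CpG and 0.908 to 3.67 in the 5 fitted libraries without stimulus.

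**Figure D2:**
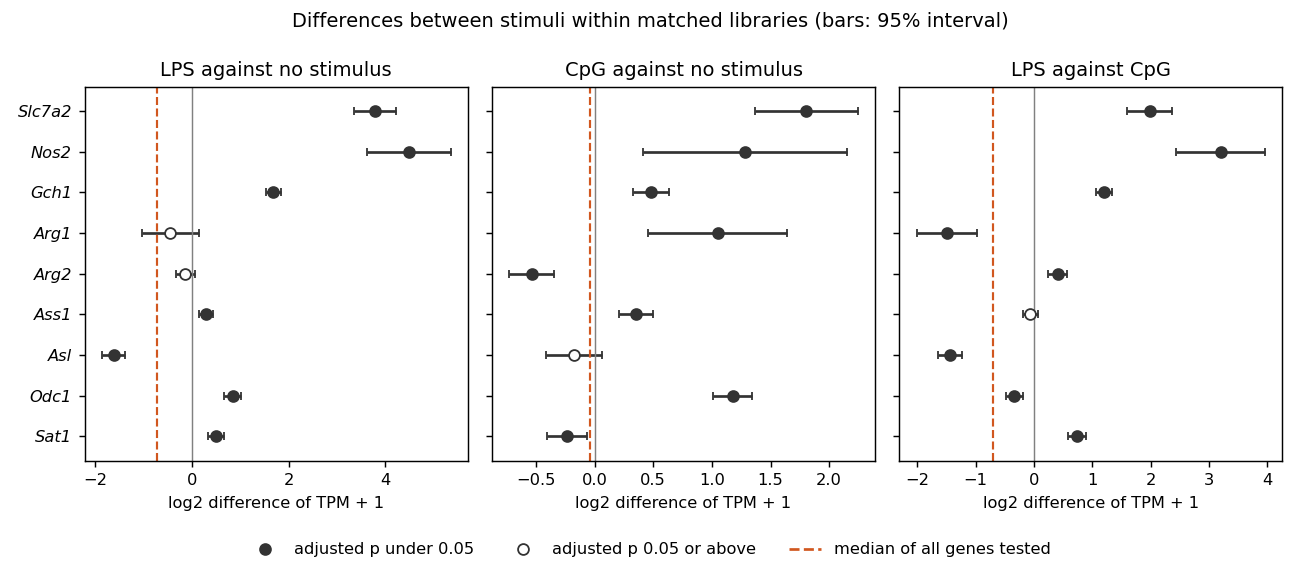
Log2 difference of TPM + 1 for the 9 genes in matched libraries, with 95% intervals, for LPS and CpG against no stimulus and LPS against CpG; filled points have a limma adjusted p under 0.05 and the dashed line is the median of all 11672 genes. Asl lies at -1.62 with LPS, left of that median at -0.71, and Nos2 and Slc7a2 lie farthest to the right, at 4.48 and 3.79.

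The genotype labels went with Arg1 and Ass1. Arg1 was higher in the Lum-/- labelled library of each of 5 matched pairs: 28.4 against 6.82 TPM with LPS, 67.2 against 19.2 with CpG, 7.33 against 3.34 with lumican and LPS, 24.3 against 8.43 with lumican and CpG, and 13.4 against 7.48 with lumican alone. The log2 difference was 1.39 ± 0.20 (limma adjusted p = 0.0017). It was the 1 gene of the 9 that passed, where 10.6% of all genes did, 3.05% higher. Nos2 was also higher in 5 of 5 pairs, by 1.01 ± 0.33, and Arg2 by 0.27 ± 0.09, without passing (limma adjusted p = 0.0778 and 0.0941); without the wild type untreated library, or without the untreated Bgn-/- labelled one, both passed (0.92 and 0.24). Asl, at 0.29 ± 0.12, passed without either library given biglycan and LPS (0.33).

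Ass1 was lower in the Bgn-/- labelled library of each of 5 pairs, at 221 against 248 TPM untreated, 264 against 354 with LPS, 252 against 354 with CpG, 246 against 288 with biglycan and LPS, and 254 against 353 with biglycan and CpG. The log2 difference was -0.39 ± 0.07 (limma adjusted p = 0.026), and it was the 1 gene of the 9 that passed, where 1.03% of all genes did, 0.668% lower. The call was lost without the wild type or the Bgn-/- labelled library with LPS, with CpG, or with biglycan and CpG (-0.39 to -0.35, adjusted p by limma of up to 0.119). Mast cell markers had a median sum of 82.0 TPM in fitted wild type libraries, 9.25 in Lum-/- labelled and 4.63 in Bgn-/- labelled ones. In the same order, large peritoneal macrophage markers had median sums of 203, 129 and 239 TPM. Those of small peritoneal macrophages, monocytes and dendritic cells had 35.3, 34.7 and 30.5 TPM. The part of these markers in both differences was not tested. No gene of the 9 passed in the 6 tests of whether a stimulus difference depended on the genotype label, in which 0 to 3 genes of 11672 (0.00 to 0.0257%) passed. Without the wild type untreated library, Arg1 passed in the CpG response by Bgn-/- label (2.35, adjusted p = 0.0213 by limma) and Slc7a2 in LPS against CpG by that label (1.03, adjusted p = 0.0420 by limma).

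Added protein came with lower Arg1 in stimulated cells. With LPS, Arg1 was 6.82 TPM in wild type cells alone, 3.34 with lumican and 3.31 with biglycan, 28.4 and 7.33 in Lum-/- labelled cells without and with lumican, and 2.94 and 1.17 in Bgn-/- labelled cells without and with biglycan. With CpG the same order of libraries gave 19.2, 8.43 and 7.20 TPM, then 67.2 and 24.3, then 18.4 and 7.36. Arg1 was lower with protein in 4 of 4 pairs under LPS and 4 of 4 under CpG, with single-pair log2 differences of -1.82 to -0.85 and -1.43 to -1.10. The wild type pairs share a control library. Without stimulus it was higher in both wild type pairs, against the wild type untreated library.

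Averaged over stimuli, the log2 difference of Arg1 was -0.95 ± 0.27 with lumican and -0.85 ± 0.27 with biglycan, and neither passed (limma adjusted p = 0.176 and 0.180, unadjusted p = 0.0042 and 0.0086). Without the wild type untreated library both did, at -1.26 (adjusted p = 0.0019 by limma) and -1.16 (adjusted p = 0.0046 by limma). With all 21 libraries neither did, at -1.31 (adjusted p = 0.670 by limma) and 0.22 (adjusted p = 0.965 by limma), so that the direction with biglycan turned. None of the 9 passed for either protein, where 0.231% and 0.0343% of all genes did. Fits within 1 stimulus were added after the values had been seen. In an additive fit of genotype label and treatment none of the 9 passed in the 4 contrasts, where 2.28% of all genes passed for lumican with LPS, 0.231% for biglycan with LPS and 0.00% for either with CpG; Arg1 ranged from -1.39 to -1.09, with an adjusted p by limma of 0.0724 for lumican with LPS. For that contrast Arg1 passed without the Bgn-/- labelled LPS library (-1.33, adjusted p = 0.0493 by limma), and Asl passed as higher without either library given biglycan and LPS (0.62). In fits of only the 7 libraries of 1 stimulus, Arg1 passed for lumican with CpG (-1.24 ± 0.12, limma adjusted p = 0.0331, where 0.111% of genes passed) and not in the other 3, where 0.0514% passed for lumican with LPS, 0.0171% for biglycan with LPS and 0.00857% for biglycan with CpG.

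Nos2 was lower with protein under LPS. It was 440 TPM in wild type cells with LPS alone, 204 with lumican and 208 with biglycan, 480 and 278 in Lum-/- labelled cells without and with lumican, and 311 and 197 in Bgn-/- labelled cells without and with biglycan. It was thus lower in 4 of 4 pairs under LPS and in 2 of 4 under CpG. Without stimulus it was 2.73 and 3.13 times as high with protein in the 2 wild type pairs, which share the wild type untreated library. In the additive fit the difference under LPS was -1.09 ± 0.51 with lumican (limma adjusted p = 0.248) and -0.57 ± 0.51 with biglycan (limma adjusted p = 0.614). In the fit of the 7 LPS libraries it was -0.90 ± 0.11 and -0.84 ± 0.11 (limma adjusted p = 0.107 and 0.217). The difference of the lumican effect between LPS and CpG did not pass (-1.63 ± 0.71, limma adjusted p = 0.552). Slc7a2 was higher with protein in 4 of 4 pairs under LPS, at 1.04 to 1.21 of its TPM without.

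**Figure D3:**
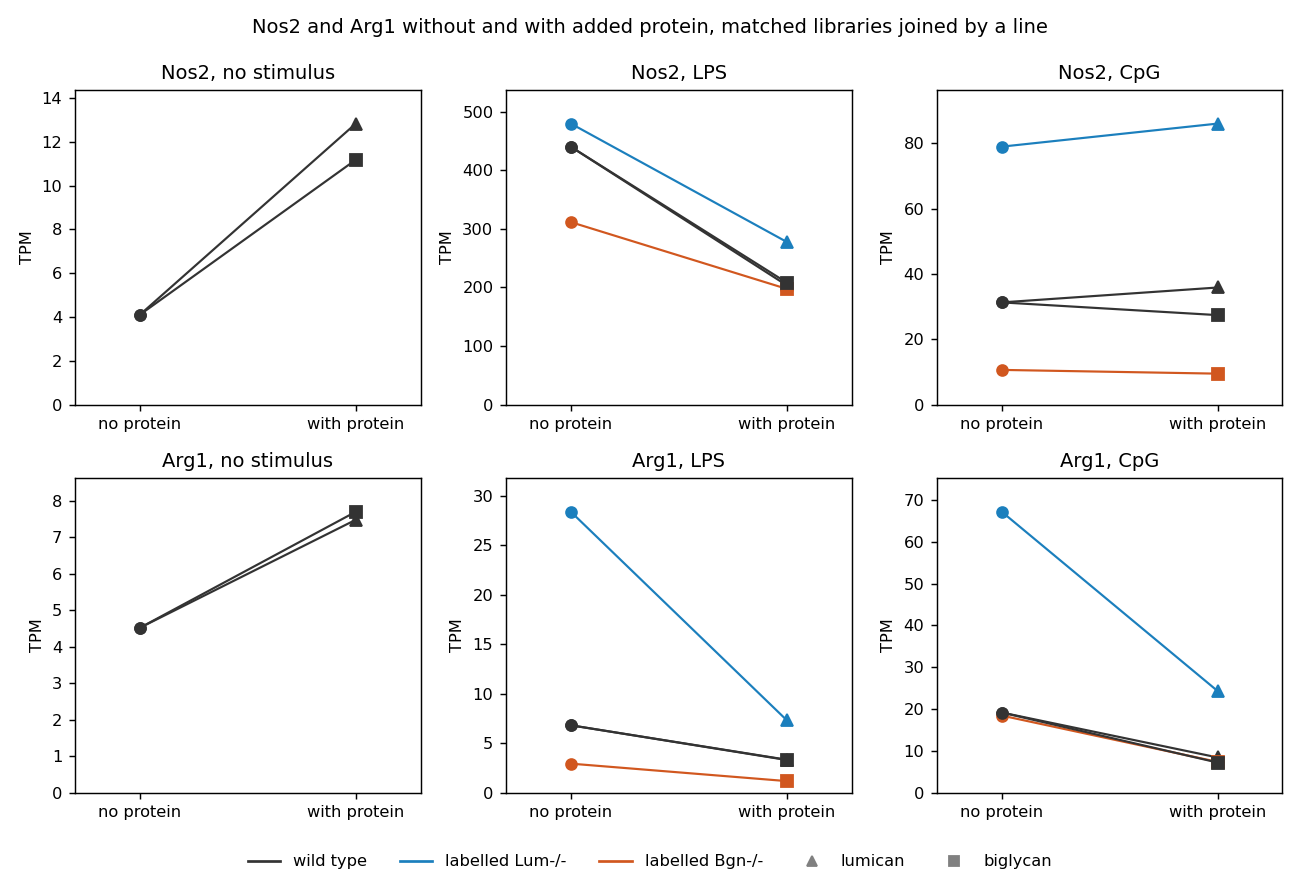
Level of Nos2 and Arg1 in TPM without and with added lumican or biglycan, by stimulus, each line joining matched libraries of 1 genotype label. Under LPS all 4 lines of both genes go down, and under CpG all 4 of Arg1 do.

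The makeup of the transcripts differed between stimuli in Sat1 and Slc7a2. Transcripts annotated as protein coding made up 60.7 to 68.9% of Sat1 TPM without stimulus, 74.7 to 76.8% with LPS and 66.6 to 74.2% with CpG. The LPS range lay above both others. Retained-intron and other noncoding forms made up 25.2 to 36.1%, 20.0 to 22.4% and 21.1 to 29.3%. The protein-coding share was 6.97 ± 2.30 (SD, n = 7 pairs) percentage points higher with LPS than with CpG, in 7 of 7 pairs (exact two-sided permutation p = 0.0156, the smallest that 7 pairs allow). Exon A transcripts made up 85.7 to 91.4% of Slc7a2 TPM without stimulus, 91.5 to 93.0% with LPS and 88.5 to 90.9% with CpG, and were 2.03 ± 1.24 (SD, n = 7 pairs) points higher with LPS than CpG in 7 of 7 pairs (exact permutation p = 0.0156). Over the 12 tests made on 4 genes, both adjusted to 0.0938 and none passed. The tests over 5 pairs could not pass, because the smallest p they allow is 0.0625. Those over 7 pairs could pass only if every one of them reached 0.0156, so no conclusion is drawn from this. These tests were added after the values had been seen, and TPM shares between transcripts of 1 gene depend on how reads common to them were assigned. Under the same limit, shares shifted by more between the 2 exon A transcripts, which differ in first exon and also elsewhere. Their first exons, at chr8:40862396-40862557 and chr8:40874948-40875044, are too short to make up the difference in length given next. Which part of the transcripts went with the shift was not tested. The one of 3677 bases made up 29.5 to 35.4% of Slc7a2 TPM without stimulus, 44.9 to 50.4% with LPS and 27.2 to 30.5% with CpG. The one of 7626 bases made up 54.9 to 61.4%, 41.4 to 46.7% and 60.2 to 61.7%. This shift was not tested.

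**Figure D4:**
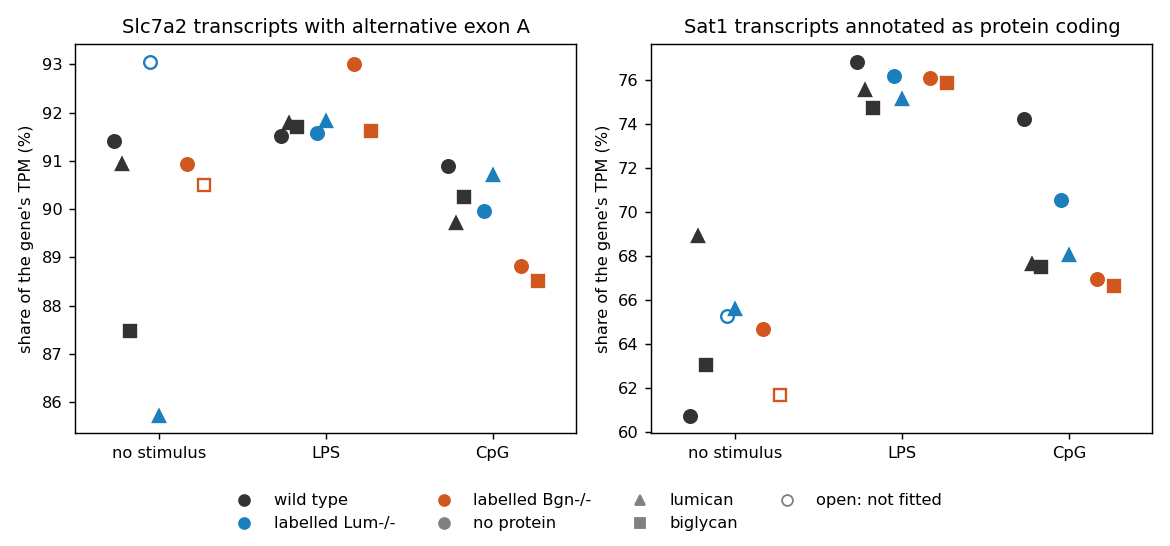
Share of the gene's TPM in Slc7a2 transcripts with exon A and in Sat1 transcripts annotated as protein coding, in percent, by library and stimulus; the axes do not start at 0. The 7 LPS libraries lie at 91.5 to 93.0% and at 74.7 to 76.8%.

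Other genes of these pathways were counted from 4 lists of 48 genes in all, of which 32 were tested. With LPS 4 were higher and 22 lower, with a median of -0.71 over the 32, the same as over all genes, of which 14.5% were higher and 72.2% lower. Among the higher was Slc7a1 (2.26 ± 0.13), which encodes the arginine transporter CAT1, from 5.26 to 11.2 TPM without stimulus to 33.1 to 50.1 TPM. Slc3a2 (1.65 ± 0.10), the heavy chain of several amino acid transporters, was higher too. Of 5 tested genes for other nitric oxide synthases, tetrahydrobiopterin and methylarginine all 5 were lower in TPM, as 72.2% of all genes were, and 1 higher and 3 lower under median-gene scaling. Among them were Spr (-2.30 ± 0.13), the last enzyme of tetrahydrobiopterin synthesis, Qdpr (-2.41 ± 0.11), which regenerates the cofactor, and Pts (-1.09 ± 0.09), the step between Gch1 and Spr. Of 14 polyamine genes 1 was higher and 11 lower, near the share over all genes, and 6 were higher and 6 lower under median-gene scaling. They included Atp13a2, a lysosomal polyamine exporter, at -3.93 ± 0.11, Paox at -2.88 ± 0.17 and Sms, spermine synthase, at -1.53 ± 0.09.

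With CpG 12 of the 32 were higher and 5 lower, where 15.2% of all genes were higher and 19.9% lower. Of 7 transport genes 5 were higher and none lower, also under median-gene scaling, including Slc7a1 (1.32 ± 0.13), Slc7a3 (1.39 ± 0.14, at 2.11 to 3.99 TPM) and Slc7a7 (0.54 ± 0.12). Srm, spermidine synthase, was 1.38 ± 0.13 higher, at 44.0 to 63.0 TPM against 17.3 to 30.2 TPM without stimulus. Aldh18a1, which starts proline synthesis from glutamate, was 1.13 ± 0.12 higher. With LPS against CpG 3 were higher and 27 lower, where 12.4% of all genes were higher and 75.7% lower, and Srm was among the lower (-1.70 ± 0.11).

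Genes with the most similar pattern were found by Pearson's r of log2(TPM + 1) over the 19 fitted libraries, which share stimuli, so r is a description. They were Ifi44 (0.98), Nlrc5 (0.98) and Ch25h (0.98) for Nos2, and Cacna1d (0.88), C1qa (0.87) and F13a1 (0.86) for Arg1. For Slc7a2 it was Mtmr7 (0.99), for Gch1 Acod1 (0.99), for Asl Hexim1 (0.98), for Odc1 Ppa1 (0.95), for Sat1 Fam53c (0.94), for Arg2 Rell1 (0.86) and for Ass1 Nelfe (0.81). Over all 21 libraries the first gene stayed the same for Odc1 and Arg2 alone. It became Ch25h (0.98) for Nos2, Cfp (0.94) for Arg1, Sesn2 for Slc7a2, Clic4 for Gch1, Pdxdc1 for Asl, Trim25 for Sat1 and Glrx for Ass1. Among the 9 genes themselves, Slc7a2 and Gch1 were closest (r = 0.95) and Gch1 and Asl most opposed (r = -0.93).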

How the data were processed

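Total RNA was sequenced from stranded libraries, per the labels' protocols, and the authors deposited 1 table of TPM per transcript, made with kallisto 0.44.0 after bcl2fastq 1.8.4 on GRCm38, per the submitters' processing notes. Each library's TPM sums to 1000000, and no read counts were used. TPM was summed by gene symbol: 82788 of 89562 transcripts carried one, 5423 were matched to GENCODE vM21 and 1351 were left out.

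The 11672 genes that averaged 1 TPM or more over 19 libraries were tested on log2(TPM + 1) with limma 3.58.1 in R 4.3.3, with trended moderation and Benjamini-Hochberg adjustment over all genes (threshold 0.05). Folds on this scale understate changes of low genes. Stimuli were compared within genotype label and protein, genotype labels within treatment, and proteins within genotype label and stimulus. Transcript shares were compared by exact sign-flip permutation over matched pairs. Depth was estimated from the lowest values of genes with 1 transcript of at least 1000 bases. The fits were tested on simulated data.

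All 9 members are named, and from each pathway list up to 3 genes that passed with the largest change; for the similar patterns, the first gene, and 3 for Nos2 and Arg1. The members and lists were chosen with earlier results of these data known. Alternatives were other pseudocounts and filters, median-gene scaling, the most abundant transcript, all 21 or 18 libraries, an additive fit and leaving out each library.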

Additional observations from a re-analysis of the deposited data

How the results depend on the processing

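Counts of the 9 genes that passed moved as follows, and the cause was not tested. Bgn-/- label against wild type had 1, but 0 with no filter and 0 with all 21 libraries. Lum-/- label against wild type had 1, but 2 under median-gene scaling, 0 with all 21 libraries and 3 with 18 libraries, which also leave out the wild type untreated one. With 18 libraries 1 passed for lumican, 1 for biglycan, and 1 each in the difference by Bgn-/- label of CpG against no stimulus and of LPS against CpG, in place of 0; with no filter 1 passed in that of LPS against no stimulus. CpG against no stimulus had 8, but 5 in an additive fit of all 21 libraries, added after seeing the data. Lumican with CpG had 0, but 1 in the fit of 7 libraries. Leaving out each library in turn gave 0 to 1 for the Bgn-/- label, lumican, biglycan, lumican with LPS and both Bgn-/- label differences with CpG, and 1 to 3 for the Lum-/- label. Where a test passed in either fit, directions reversed under median-gene scaling for Arg2 with LPS (0.66), and for Ass1 (0.70) and Odc1 (0.42) in LPS against CpG, and with all 21 libraries for Arg1 with CpG (-0.62). Results that did not pass as reported changed sign in 170 refits, among them also Arg1 with LPS under that scaling (0.22), and with all 21 libraries Arg1 with biglycan (0.22) and by Bgn-/- label (0.18). Of 25 results of single genes that passed, 16 passed in the same direction under every setting run. The labels give no replicate numbers, so libraries were paired by genotype label, protein and stimulus. Arg1, Lum and Bgn stood near 1 TPM or below in some libraries, where few reads lie behind a value.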
